A study of Mus musculus with 8 samples.

Results

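The genes described here are those of the mitochondrial ribosome, taken as every gene of the count table whose symbol is Mrpl or Mrps followed by a digit. This rule found 78 of the 53819 genes in the table, after 6 pseudogene symbols ending in -ps were left out, and each symbol stood for 1 gene ID. Of the 78 genes, 51 encode proteins of the large subunit and 26 proteins of the small subunit. The remaining gene, *Mrps36*, carries a ribosomal name but its protein is a component of the oxoglutarate dehydrogenase complex. All 78 genes had enough reads to be tested.

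The mitochondrial ribosome, or mitoribosome, translates the mRNAs encoded in mitochondrial DNA, which specify core subunits of the respiratory chain and of ATP synthase. Its rRNAs come from mitochondrial DNA, whereas its proteins are encoded in the nucleus, made on cytosolic ribosomes and imported. Some of the proteins descend from bacterial ribosomal proteins and others are specific to mitochondria. In macrophages, changes of mitochondrial respiration accompany inflammatory activation.

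Bone marrow-derived macrophages (BMDM) were grown from 4 female BALB/cJ mice aged 8 weeks, with the growth factor M-CSF at 25 ng/mL for 5 days. Cultures of each mouse were then given 2.5 µM bilirubin, the end product of heme breakdown, or DMSO as vehicle for 48 h, so that the mice are numbered 1 to 4 and each contributed 1 culture to both groups. RNA was sequenced after poly-A selection, and the question was how bilirubin alters macrophage expression. All animals were females of 1 strain and age, and the cultures of different mice were kept apart.

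The 8 libraries held 34142781 to 47071714 estimated counts on genes, and mitochondrially encoded genes took 3.05 to 3.59% of them. The 8 macrophage markers examined were all tested, with a summed level of 30590 to 30760 TPM (a level scaled for transcript length and library size) with vehicle and 34430 to 38210 TPM with bilirubin. Of these markers *Lyz2*, *Adgre1*, *Itgam* and *Cd14* were upregulated. The other 4 had log2 fold changes of -0.20 (*Fcgr1*), -0.16 (*Cd68*), -0.15 (*Mertk*) and -0.02 (*Csf1r*) and did not pass (adjusted p = 0.465, 0.0924, 0.104 and 0.935), while 0 to 3 of them passed as lower over the alternatives. The 9 neutrophil markers examined summed to 65.8 to 78.2 TPM with vehicle and 110.8 to 160.4 TPM with bilirubin. Of the 3 that were tested, 1 was upregulated, *S100a8*, from 11.5 ± 1.15 to 24.4 ± 5.55 CPM (counts scaled to a common library size with edgeR's TMM factors; SD, n = 4). The 3 log2 fold changes ran from -0.06 to 1.07. *Ly6g* was at 0 CPM in the vehicle cultures. Markers of T, NK, dendritic, fibroblast and mast cells summed to at most 2.01 TPM per list in any library, and *Trac*, *Ncr1*, *Prf1* and *Lum* were at 0 CPM in both groups. In bulk RNA, fewer cells of a type and less RNA per cell cannot be told apart, and the part of these markers in the results below was not tested.

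Mitoribosomal genes were expressed throughout the 8 cultures, with between 301 and 2843 counts for each gene in each library. Their median level was 44.4 TPM with vehicle and 45.2 TPM with bilirubin, and 36 of the 78 genes had a mean vehicle level of 50 TPM or more. Medians were 44.7 TPM for the large subunit and 41.3 TPM for the small subunit with vehicle. The highest mean level was 22.2 times the lowest. *Mrpl52*, which encodes a mitochondria-specific protein of the large subunit, led the order at 201.8 ± 20.6 TPM with vehicle (SD, n = 4), followed by *Mrps21*, a small-subunit gene of bacterial ancestry, at 192.7 ± 10.5 TPM and the large-subunit gene *Mrpl42* at 158.5 ± 9.14 TPM. The vehicle values of *Mrpl52* (184.3 to 231.4 TPM) and *Mrps21* (177.7 to 200.3 TPM) overlapped. At the other end stood *Mrpl1*, which encodes the protein of the mobile stalk beside the tRNA exit site, at 9.09 ± 0.656 TPM. It was the only gene of the set under 10 TPM with vehicle, next to *Mrps31* at 12.1 ± 1.91 TPM and *Mrpl47* at 12.3 ± 2.02 TPM.

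The order of the levels was nearly the same in both groups. Over the 78 genes, mean TPM with vehicle and with bilirubin had a Spearman rho of 0.994, given as a description because the genes share the same libraries and transcript lengths. No gene moved by more than 10 places in the order, and 23 kept their place. Most neighbours in the order were not separated: in 3 of the 77 neighbouring pairs the 4 vehicle values of one gene lay wholly above those of the next.

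**Figure D1:**
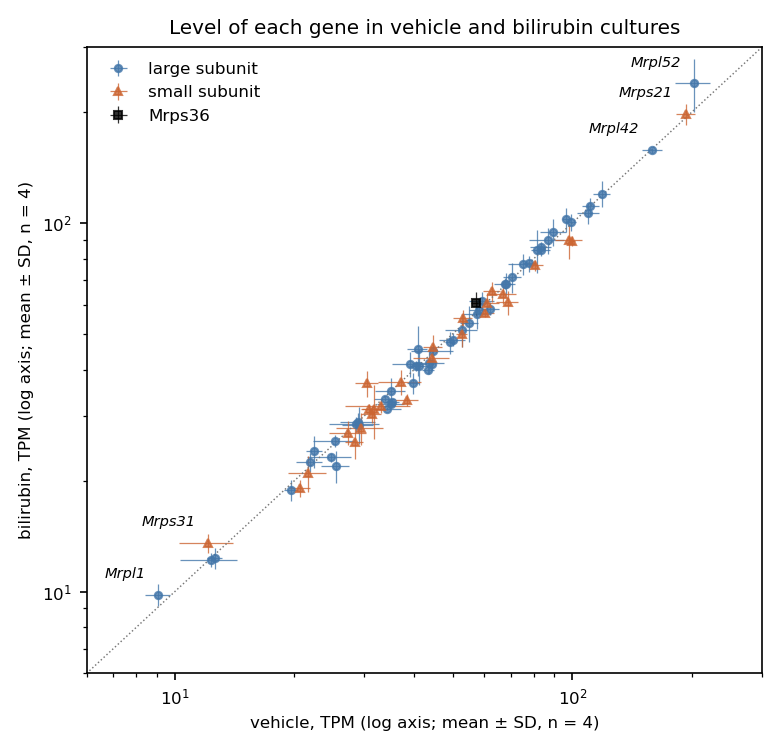
Mean level of each of the 78 genes in TPM with vehicle (horizontal log axis) and with bilirubin (vertical log axis); bars are SD over 4 mice and the dotted line marks equal levels. Large-subunit genes (circles), small-subunit genes (triangles) and Mrps36 (square) lie along the line from Mrpl1 at 9.09 TPM to Mrpl52 at 201.8 TPM with vehicle, and Mrpl52 lies above it.

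Few of the mitoribosomal genes differed between bilirubin and vehicle cultures. Against vehicle, 1 of the 78 genes passed an adjusted p of 0.05 in edgeR with the mouse in the model, which is 1.28%, while 7.53% of all 13722 tested genes passed. The 1 gene, *Mrpl52*, was upregulated, and 4.49% of all tested genes were upregulated past the threshold. None of the 78 genes was downregulated past it, by edgeR, DESeq2 or limma-voom. At an unadjusted p under 0.05 stood 4 of the 78 genes, *Mrpl52*, *Mrps36*, *Mrps7* and *Mrps15*, against 20.8% of all tested genes. In 1 gene, *Mrps12*, the CPM values of the groups did not overlap, which was the case for 10.6% of all tested genes. DESeq2 and limma-voom also gave 1 gene, *Mrpl52*.

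Log2 fold changes of bilirubin over vehicle ran from -0.14 for *Mrps12* to 0.29 for *Mrpl52*, with a median of 0.039, and 50 of the 78 were positive. The median was 0.0038 with a trend along gene length removed, 0.0128 with scaling by library size alone and 0.0193 without mouse 4. The median of all tested genes was -0.0018. For 66 of the 78 genes the whole 95% interval lay within 0.25 of 0 on the log2 scale, a change of at most 1.189-fold. No interval reached below -0.30, a fold of 0.814 (*Mrps6*), and without *Mrpl52* none reached above 0.39, a fold of 1.309 (*Mrps31*). Among all tested genes 47.6% had an interval within the same bound.

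**Figure D2:**
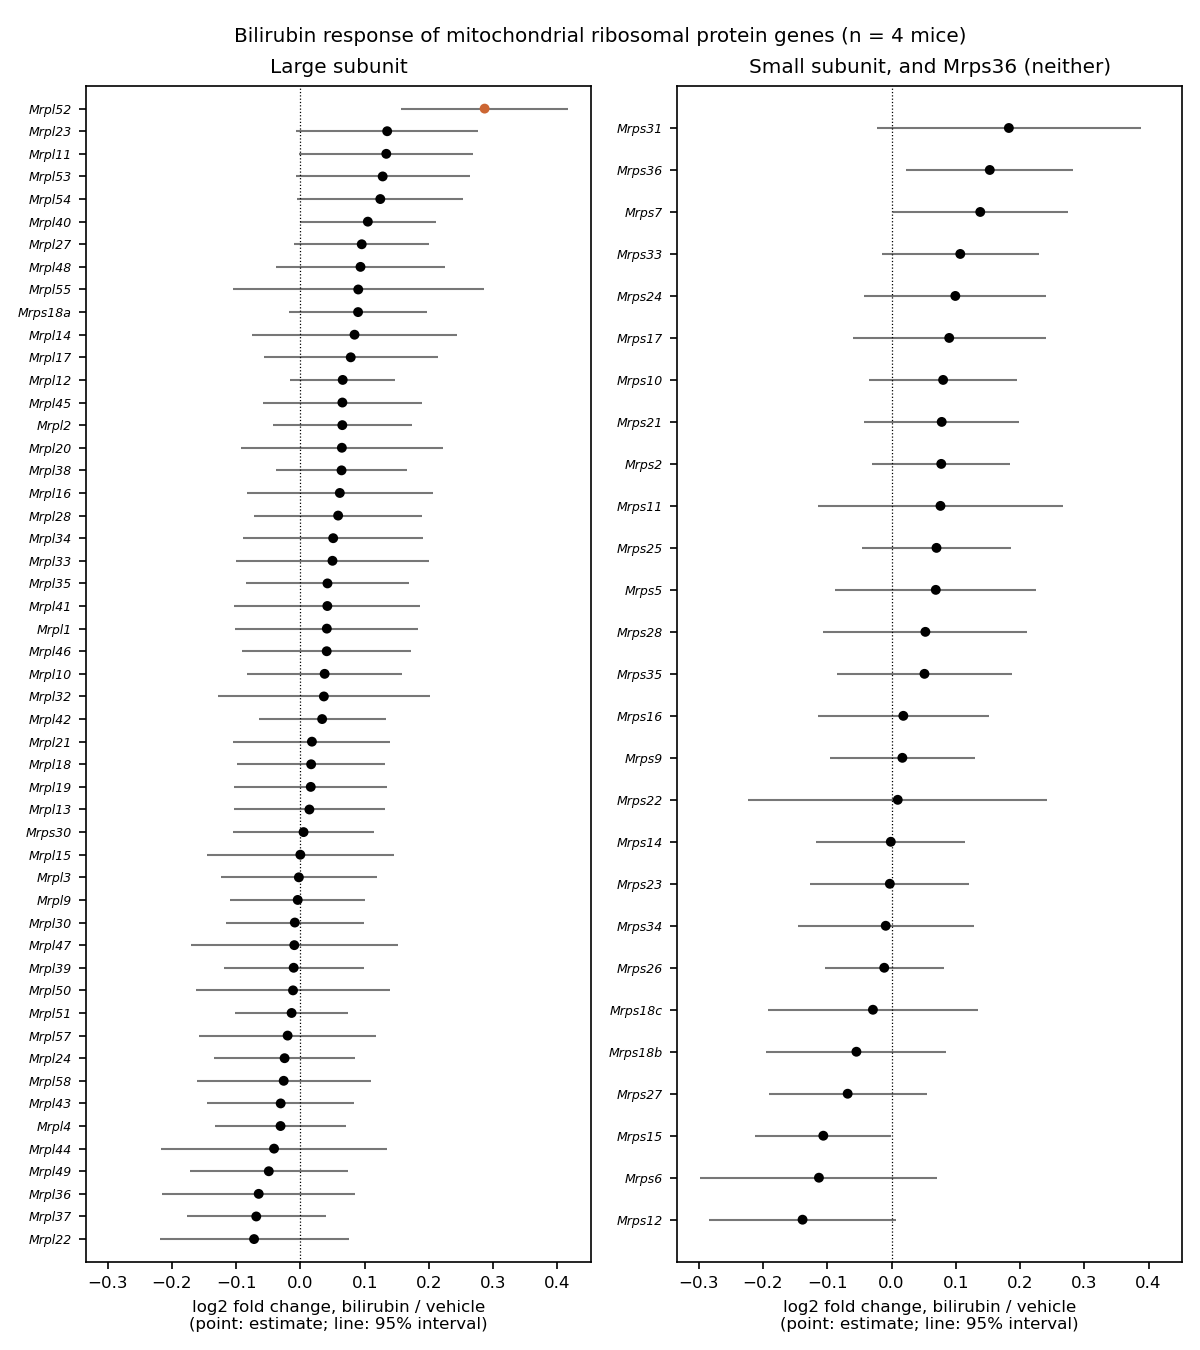
Log2 fold change of bilirubin over vehicle (horizontal axis) for each of the 78 genes, with large-subunit genes on the left and small-subunit genes and Mrps36 on the right; lines are 95% intervals from the edgeR fit on 4 mice. Mrpl52, in orange, is the 1 gene past the adjusted threshold, at 0.29, and the other estimates lie between -0.14 and 0.18.

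*Mrpl52* (ENSMUSG00000010406; GRCm39, chromosome 14, 54664360 to 54668593, plus strand) was measured at 30.5, 30.2, 33.0 and 38.2 CPM in the vehicle cultures of mice 1 to 4. With bilirubin the values were 36.1, 32.9, 44.4 and 48.3 CPM in the same order. Every mouse was higher with bilirubin, but the groups overlapped, since the vehicle culture of mouse 4 lay above the bilirubin cultures of mice 1 and 2. The means were 33.0 ± 3.70 CPM with vehicle against 40.5 ± 7.13 CPM with bilirubin (SD, n = 4), a fitted difference of 0.29 ± 0.06 (standard error) on the log2 scale, or 1.22-fold with a 95% interval of 1.115 to 1.334 (edgeR, adjusted p = 0.0190). By mouse the log2 difference was 0.24, 0.12, 0.43 and 0.34. The call was lost when mouse 3 (adjusted p = 0.144) or mouse 4 (adjusted p = 0.126) was left out, and in a model without the pairing by mouse, that is with no replicate block (adjusted p = 0.22015).

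Most of the *Mrpl52* level, in TPM, was that of its 418-base protein-coding transcript Mrpl52-201, which held 92.6 ± 3.03% of it with vehicle and 90.9 ± 1.40% with bilirubin (SD, n = 4). That transcript was at 183.6, 174.9, 179.1 and 208.6 TPM with vehicle and 207.5, 174.3, 236.1 and 249.98 TPM with bilirubin in mice 1 to 4. On this scale it was higher with bilirubin in 3 of the 4 mice, all but mouse 2. With a per-library effective length as an offset in the edgeR fit, the log2 fold change of *Mrpl52* was 0.28 and its adjusted p was 0.0780.

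*Mmp14*, which encodes a membrane-bound matrix metalloproteinase, lies on the same strand directly downstream of *Mrpl52*, and its annotated start (chromosome 14, 54668878) is 285 bases past the end of *Mrpl52*. It was at 21.3, 17.8, 20.4 and 20.4 CPM with vehicle against 116, 64.3, 158.5 and 122.6 CPM with bilirubin in mice 1 to 4, and was upregulated by 2.48 ± 0.15 (standard error) on the log2 scale (edgeR, adjusted p = 5.51e-05). The log2 difference of *Mmp14* was 2.45, 1.85, 2.95 and 2.58 in mice 1 to 4. Mouse 2 had the smallest and mouse 3 the largest difference in both genes, and the mice stood in the same order. With 4 mice no correlation was computed, and the part of the neighbouring gene in the reads of *Mrpl52* was not tested. On the opposite strand the long noncoding RNA gene *Gm62879* shares 465 exonic bases with *Mrpl52*, and its part in those reads was not tested either.

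In all, 48 of the 78 genes had a tested protein-coding gene overlapping or within 1000 bases, 61 such neighbours altogether, and *Mmp14* was the 1 neighbour past the threshold. The next lowest adjusted p was 0.0652, for *Pgap6* beside *Mrpl28*.

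**Figure D3:**
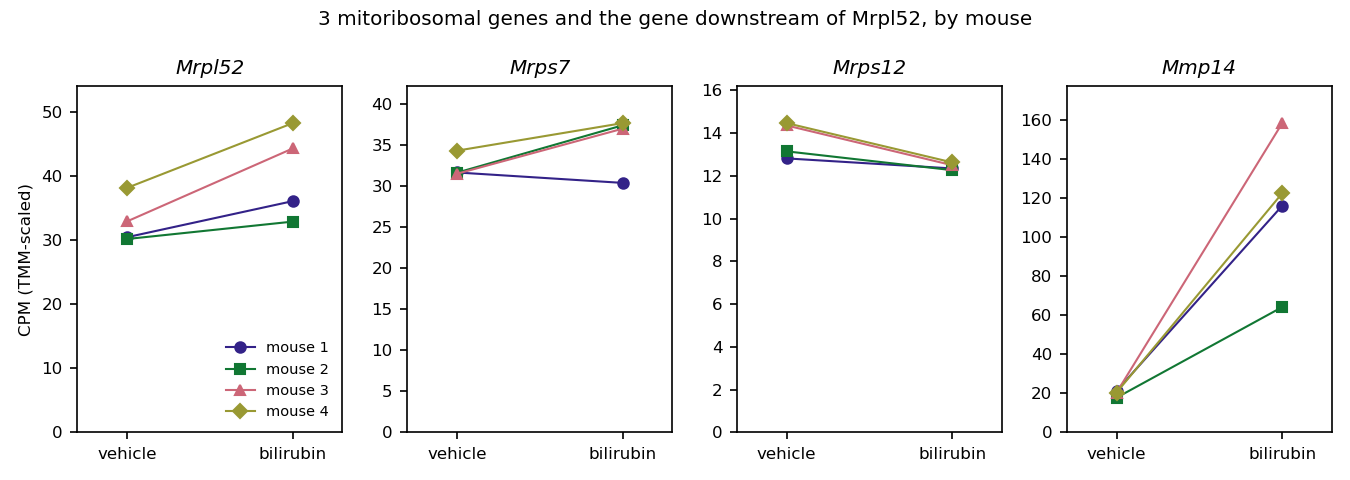
TMM-scaled CPM (vertical axes from 0, 1 scale per gene) of Mrpl52, Mrps7, Mrps12 and Mmp14 in the vehicle and bilirubin culture of each mouse, joined by a line. Mrpl52 is higher with bilirubin in all 4 mice and Mrps12 lower in all 4, Mrps7 is lower in mouse 1 and higher in the others, and Mmp14 goes from 17.8 to 21.3 CPM up to 64.3 to 158.5 CPM.

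The other large-subunit genes had log2 fold changes of -0.07 (*Mrpl22*) to 0.14 (*Mrpl23*), and the median over all 51 was 0.038. *Mrpl23*, the homologue of a bacterial protein at the exit of the polypeptide tunnel, was at 27.0, 29.9, 30.3 and 33.0 CPM with vehicle against 34.2, 29.9, 33.2 and 34.6 CPM with bilirubin in mice 1 to 4. Its log2 difference was largest in mouse 1, at 0.34, and -0.0030 to 0.13 in the others, and the adjusted p was 0.264. *Mrpl11*, which belongs to the base of the stalk where translation factors bind, was higher with bilirubin in all 4 mice (19.8 ± 1.80 to 21.8 ± 2.45 CPM, SD, n = 4; adjusted p = 0.246), and so was *Mrpl12*, the stalk protein itself (61.2 ± 3.91 to 64.1 ± 4.51 CPM; adjusted p = 0.354). Neither passed the test, and the 95% intervals were -0.0015 to 0.27 for *Mrpl11* and -0.02 to 0.15 for *Mrpl12* on the log2 scale.

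Several more large-subunit genes were named for their low p-values without passing. *Mrpl40* (log2 fold change 0.10), *Mrpl53* (0.13) and *Mrpl54* (0.12) encode mitochondria-specific proteins, and *Mrpl27* (0.10) the homologue of a bacterial protein close to the peptidyl transferase centre. Their adjusted p-values were 0.246, 0.268, 0.260 and 0.289 in that order. *Mrpl40*, *Mrpl53* and *Mrpl27* were higher with bilirubin in 4 of 4 mice and *Mrpl54* in 3. *Mrpl48* had a log2 fold change of 0.09 (adjusted p = 0.424) and was higher in 3 mice. At the lower end, *Mrpl47* (-0.0095) and *Mrpl1* (0.04) stood near 0, as did the abundant *Mrpl42* (0.03).

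Across the 26 small-subunit genes the median log2 fold change was 0.035, and 0 passed the threshold by edgeR, with 2 at an unadjusted p under 0.05. DESeq2 and limma-voom also called 0 of them. *Mrps7* (ENSMUSG00000046756), which encodes a protein of the head of the subunit, was at 31.7, 31.6, 31.5 and 34.3 CPM with vehicle against 30.4, 37.4, 37.0 and 37.7 CPM with bilirubin in mice 1 to 4. Mice 2, 3 and 4 were higher with bilirubin and mouse 1 was not, so that the groups overlapped. The fitted difference was 0.14 ± 0.06 (standard error) on the log2 scale, with a 95% interval of 0.0022 to 0.27 (edgeR, adjusted p = 0.233), and without mouse 1 it was 0.20 with an adjusted p of 0.0158.

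The transcripts of *Mrps7* were also examined, and their part in this value was not tested. Its coding transcript Mrps7-201 (1962 bases) held 90.1 ± 2.84% of the gene's TPM with vehicle and 76.3 ± 8.10% with bilirubin (SD, n = 4), and the rest was Mrps7-202, a 572-base transcript without a defined coding sequence. Mrps7-202 was at 3.17, 1.98, 2.53 and 4.50 TPM with vehicle and 9.47, 3.92, 10.6 and 11.3 TPM with bilirubin, higher in each mouse although the lowest bilirubin value lay below the highest vehicle value. Mrps7-201 itself was at 26.6 to 28.7 TPM with vehicle and 24.9 to 29.9 TPM with bilirubin. With effective length as an offset, *Mrps7* had a log2 fold change of 0.31 and an adjusted p of 0.0416, the only gene of the set past the threshold in that fit. Reads of *Mrps7* may also be shared with *Mif4gd*, whose exons cover 1243 bases of it on the opposite strand, and the strand setting of the counting is not given in the sources used here.

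*Mrps12* (ENSMUSG00000045948), the homologue of a bacterial protein at the decoding centre, had the lowest log2 fold change of the set. Vehicle cultures were at 12.8, 13.1, 14.4 and 14.5 CPM and bilirubin cultures at 12.3, 12.3, 12.5 and 12.6 CPM in mice 1 to 4. The groups did not overlap, and bilirubin was lower in each mouse. The difference did not pass the threshold, at -0.14 ± 0.06 (standard error) on the log2 scale, with a 95% interval of -0.28 to 0.007 (edgeR, adjusted p = 0.266). *Sars2*, the mitochondrial seryl-tRNA synthetase gene whose start faces that of *Mrps12*, had a log2 fold change of -0.10 (adjusted p = 0.557).

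*Mrps15*, a small-subunit gene of bacterial ancestry, was at 48.6 ± 1.22 CPM with vehicle against 45.2 ± 2.83 CPM with bilirubin (SD, n = 4), lower in mice 1, 2 and 3 and higher in mouse 4 (adjusted p = 0.239). It shares 230 exonic bases on the same strand with *Oscp1*, so that reads there could be assigned to either. *Mrps6* had the lowest lower bound of the set, with an interval of -0.30 to 0.07 on the log2 scale, from 12.3 ± 0.625 CPM with vehicle against 11.4 ± 1.40 CPM with bilirubin. Its differences were -0.36 in mouse 1 and -0.07 to 0.02 in the others.

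On the positive side, *Mrps31* had a log2 fold change of 0.18 with an interval of -0.02 to 0.39, and mouse 1, where its vehicle culture was lowest at 8.77 CPM, gave 0.46 of difference. *Mrps33* was higher with bilirubin in all 4 mice (21.1 ± 0.946 to 22.8 ± 0.760 CPM, SD, n = 4; edgeR, adjusted p = 0.308). *Mrps2*, *Mrps10*, *Mrps24* and *Mrps21* had log2 fold changes of 0.08, 0.08, 0.10 and 0.08 and were each higher in 3 of 4 mice. All had adjusted p-values of 0.416 or more.

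The name of a gene does not always give its subunit. The proteins of *Mrps18a* and *Mrps30* sit in the large subunit, whereas those of *Mrps18b* and *Mrps18c*, which are paralogs of *Mrps18a*, sit in the small subunit. *Mrps18a* was at 38.4 ± 2.73 CPM with vehicle against 40.8 ± 1.04 CPM with bilirubin (SD, n = 4), higher in all 4 mice (adjusted p = 0.336). *Mrps18b* (36.7 ± 0.744 to 35.4 ± 3.48 CPM) and *Mrps18c* (19.6 ± 1.31 to 19.2 ± 1.14 CPM) had log2 fold changes of -0.05 and -0.03. Per length the paralogs stood at 83.2 TPM, 68.8 TPM and 67.0 TPM with vehicle. *Mrps30* had a log2 fold change of 0.0049 with an interval of -0.11 to 0.12.

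*Mrps36*, whose protein is not part of the mitoribosome, had the second lowest p-value among the 78 genes. It was at 17.7, 18.6, 18.0 and 19.3 CPM with vehicle against 21.0, 19.1, 19.9 and 21.8 CPM with bilirubin, higher in each mouse, with groups that overlapped in mouse 4's vehicle culture alone. The fitted difference was 0.15 ± 0.06 (standard error) on the log2 scale (edgeR, adjusted p = 0.170), short of the threshold. Without it, 77 genes of true mitoribosomal proteins remain, of which *Mrpl52* was the 1 past the threshold.

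By ancestry, the 46 genes with a bacterial homologue had a median log2 fold change of 0.042 and the 31 mitochondria-specific genes one of 0.0097. This order did not hold within mice. The medians for mice 1 to 4 were 0.0076, 0.0197, 0.030 and 0.0486 for the genes with a bacterial homologue. For the mitochondria-specific genes they were 0.0286, 0.0303, 0.0263 and 0.0762, the higher of the 2 medians in mice 1, 2 and 4. The groups of genes were not tested against each other. Within mice, the median over all 78 genes was 0.015, 0.029, 0.030 and 0.060 for mice 1 to 4, positive in each, with an SD over mice of 0.0187. In all 4 mice, 10 of the 78 genes were higher with bilirubin, and *Mrps12* was the 1 gene lower in each. The same sign in every mouse was thus seen in 14.1% of the set and in 28.3% of all tested genes.

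In total, the 78 genes took 0.209 to 0.228% of the counts with vehicle and 0.211 to 0.229% with bilirubin. Summed over the set, the level was 4261, 4260, 4324 and 4548 TPM with vehicle and 4304, 4167, 4386 and 4540 TPM with bilirubin in mice 1 to 4. The sum was higher with bilirubin in mice 1 and 3 and lower in mice 2 and 4, and in both groups mouse 4 had the highest sum. For single genes the spread between mice had a median coefficient of variation of 5.65% with vehicle and 7.01% with bilirubin, against 6.46 and 8.99% over all tested genes.

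The rest of the mitochondrial translation system was examined in the same fit. Of the 5 mitoribosomal proteins with other symbols, 0 passed by edgeR, DESeq2 or limma-voom and 1 had an unadjusted p under 0.05 by edgeR. *Dap3* had a log2 fold change of 0.04, *Ptcd3* -0.07, *Chchd1* 0.10, *Aurkaip1* 0.11 and *Gadd45gip1* 0.0058, with adjusted p-values of 0.733, 0.690, 0.267, 0.191 and 0.983. None of the 26 genes for mitoribosome assembly, the 16 mitochondrial translation factors or the 20 genes for mitochondrial aminoacyl-tRNA synthetases and the related amidotransferase passed either. Their median log2 fold changes were -0.020, -0.022 and -0.014, and 1, 2 and 0 of them had an unadjusted p under 0.05 by edgeR. DESeq2, limma-voom and the other alternatives also called 0 genes of these lists. They had fewer counts per gene, with median log2 CPM of 3.70, 4.11 and 3.75 against 4.76 for the mitoribosomal genes, and 50, 62.5 and 50% of their genes had an interval within 0.25 of 0, against 84.6% of the 78 genes.

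The mitochondrial genome encodes the mRNAs that the mitoribosome translates and its rRNAs. Of the 13 mitochondrially encoded mRNAs 0 passed the threshold by edgeR, 3 had an unadjusted p under 0.05, and the median log2 fold change was -0.0090. DESeq2 and limma-voom also called 0 of them, while 1 was lower past the threshold with scaling by library size alone and 3 without a filter on low counts. The mice differed in sign, with medians over these mRNAs of -0.092, 0.007, -0.139 and 0.091 for mice 1 to 4. Without mouse 4 the list median was -0.095, with 2 of 13 positive. The small-subunit rRNA *mt-Rnr1* was upregulated, at 126, 132, 108 and 114 CPM with vehicle against 137, 151, 136 and 137 CPM with bilirubin, a difference of 0.23 ± 0.04 (standard error) on the log2 scale (edgeR, adjusted p = 0.0145). It was higher in all 4 mice and the groups did not overlap, but the call was lost without mouse 2, 3 or 4 (adjusted p = 0.0604, 0.121 and 0.106) and without the pairing (0.0770). The large-subunit rRNA *mt-Rnr2* had a log2 fold change of -0.08 (adjusted p = 0.314). Both were counted in poly-A selected RNA, which does not measure total rRNA.

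Of 16 tested regulators of mitochondrial transcription and biogenesis, among them *Polrmt* (the mitochondrial RNA polymerase; log2 fold change -0.0029), *Tfam* (which packages mitochondrial DNA; -0.05), *Nrf1*, *Gabpa* and *Yy1*, 0 passed by edgeR, DESeq2 or limma-voom and 2 had an unadjusted p under 0.05 by edgeR. The coactivator *Ppargc1b* had the largest log2 fold change of this list, 0.23, higher in 4 of 4 mice, with an adjusted p of 0.166. *Myc*, which drives ribosome production in growing cells, was at 58.0 ± 3.23 CPM with vehicle against 56.5 ± 8.10 CPM with bilirubin (SD, n = 4; adjusted p = 0.798). Of 20 proliferation genes *Bub1*, a spindle checkpoint kinase, was the 1 past the threshold (log2 fold change 0.20, adjusted p = 0.0290), and it did not pass without mouse 2, 3 or 4 (adjusted p = 0.0841, 0.194 and 0.173) or with the effective length offset (adjusted p = 0.531).

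Genes of the cytosolic ribosome and the respiratory chain were set beside the 78 genes. Of 76 cytosolic ribosomal protein genes 7 were upregulated, or 9.21%, and 0 downregulated, and 75 had a positive log2 fold change, with a median of 0.091. *Rpsa* (log2 fold change 0.19), *Rpl39* (0.18), *Rplp0* (0.16) and *Rpl19* (0.15) had the lowest adjusted p-values of this list, 0.0159, 0.0145, 0.0147 and 0.0297. Reads of these genes can be split with their many pseudogene copies. The number past the threshold was 19 without mouse 1 and 0 without mouse 2, 3 or 4, and was also 0 without the pairing, 1 with the effective length offset, 2 with the length trend removed and 3 with scaling by library size alone. Of 78 nuclear genes for the respiratory chain and ATP synthase 2 were upregulated, *Cox5a* (0.16, adjusted p = 0.0385) and *Atp5l* (0.16, adjusted p = 0.0340), with a list median of 0.045, and this number was 5 without mouse 1 and 0 without mouse 2, 3 or 4, without the pairing, with the effective length offset, with the length trend removed and with scaling by library size alone. The lists were not tested against one another.

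**Figure D4:**
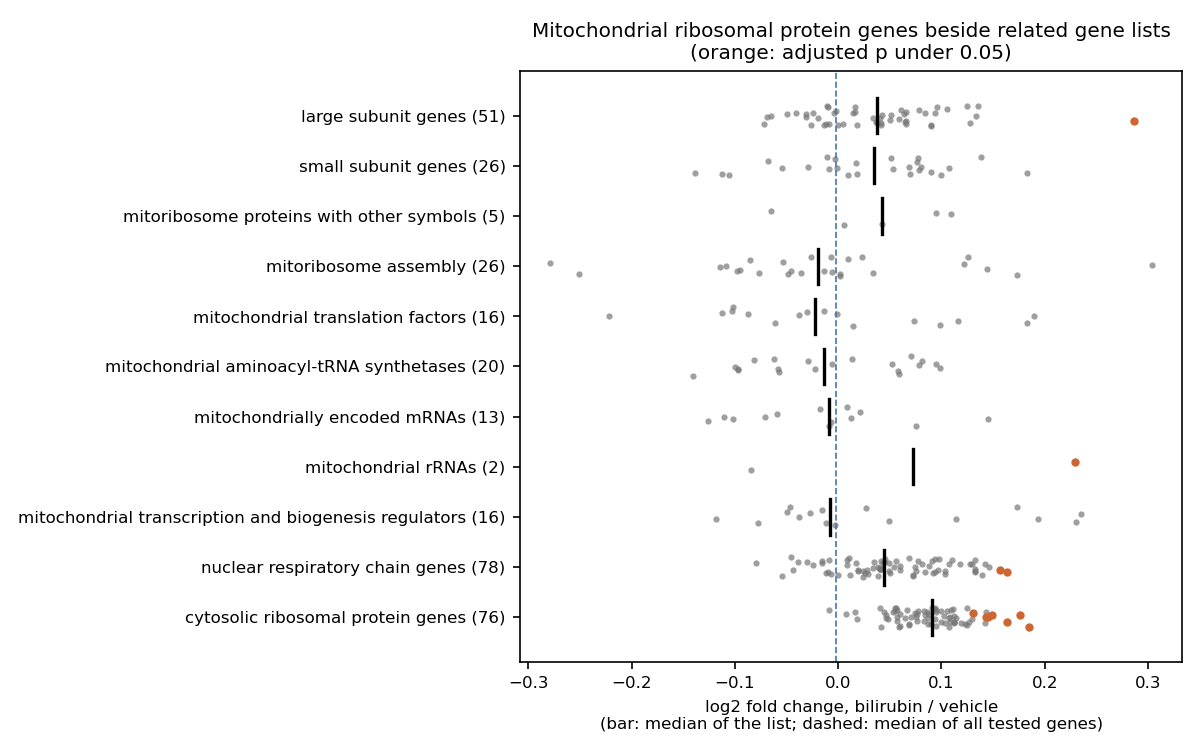
Log2 fold change of bilirubin over vehicle (horizontal axis) for the large- and small-subunit genes and for related lists, 1 point per tested gene, with the number of genes in parentheses; black bars are list medians, orange points have an adjusted p under 0.05, and the dashed line is the median of all tested genes. List medians run from -0.022 for the translation factors to 0.091 for the cytosolic ribosomal protein genes.

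Gene length differed between the lists. The 78 genes had a median transcript length of 986 bases and the cytosolic ribosomal protein genes one of 670 bases, while all tested genes had one of 2221 bases. The mitochondrially encoded mRNAs, at 784 bases, had a median log2 fold change of -0.0090 and the respiratory chain genes, at 707 bases, one of 0.045. The part of length in the list medians was not tested. When a trend along gene length was removed from each library, the median log2 fold change of the 78 genes went from 0.039 to 0.0038, with 41 positive. That of the cytosolic ribosomal protein genes went to 0.043 and that of the respiratory chain genes to 0.0094, with 42 positive. The median of the mitochondrially encoded mRNAs went to -0.063, with 2 of 13 positive. *Mrpl52*, whose length was 420 bases, then had a log2 fold change of 0.22 (adjusted p = 0.0475).

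The 78 genes had 343 transcripts among those the authors quantified. Transcript types were taken from GENCODE M39, a different release from the Ensembl one that the authors quantified against. Transcripts typed there as protein coding held 85.1 to 86.0% of the set's reads in every library. Those with a retained intron held 6.20 to 6.76% and those marked for nonsense-mediated decay 3.67 to 4.09%. In 72 genes a single transcript held over 50% of the TPM, and in all 78 the leading transcript with vehicle was also the leading one with bilirubin. That transcript was annotated as protein coding in 62 of the 78 genes. In *Mrpl32*, at 89.8% with vehicle, it was marked for nonsense-mediated decay, and in *Mrpl1* it was absent from GENCODE M39. The share of the leading transcript did not overlap between the groups in 3 genes, *Mrpl18* (94.3 ± 0.453 to 92.2 ± 0.685%, SD, n = 4), *Mrps30* (95.4 ± 1.13 to 97.7 ± 0.665%) and *Mrps31* (95.3 ± 2.92 to 98.2 ± 0.292%). That is 4.0% of the 75 genes of the set with over 1 transcript, beside 2.53% of 11304 such genes among all tested. The largest shift, 16.3 percentage points in *Mrps11* (60.0 ± 20.4 to 76.2 ± 9.10%), was within the spread between mice. These shares are estimates by Salmon, and none of them was tested.

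In the genome the 78 genes were spread over 17 chromosomes, with 11 on chromosome 11. Exons of 41 of them overlap those of another protein-coding gene, in 38 cases on the opposite strand. The same-strand overlaps are those of *Mrps15* with *Oscp1*, *Mrps24* with *Urgcp*, *Mrps34* with *Nme3*, and *Mrps6* with *Slc5a3* and *Gm49711*. For 26 genes the start faces that of another protein-coding gene, with starts that overlap by at most 500 bases or lie at most 1000 bases apart. *Mrpl46* and *Mrps11* form such a pair with each other on chromosome 7, and *Mrpl36* is paired with *Ndufs6* and *Mrpl32* with *Psma2*.

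Promoter sequences were read for 69 of the 78 genes, as 75 windows of 300 bases from RefSeq (GRCm38.p6; 250 bases before to 50 after a start), because several genes have more than 1 start. They were searched on both strands for the letters CCGGAAG, the core bound by ETS factors such as GABP, GCATGCGC, a core of NRF1 sites, AAGATGGC, the core of YY1 sites, CACGTG, the E-box of MYC and related factors, and CCAAT, the box bound by NF-Y. The ETS core was in 34.7% of the mitoribosomal windows and in 8.86% of all 32851 windows of the table. For YY1 the shares were 16 and 2.75%, and for NRF1 10.7 and 2.71%. The E-box (9.33 and 7.15%) and the CCAAT box (40.0 and 37.4%) were closer to each other. These shares count windows, and the windows of *Mrpl2* overlap, so its E-box was counted in each. By gene, the ETS core was in 26 of the 69 genes, YY1 in 12, NRF1 in 8, the E-box in 5 and the CCAAT box in 27. The median GC content was 58.7% in the mitoribosomal windows and 52.7% in all, and the part of GC content in these shares was not tested. The ETS and YY1 strings can overlap in AAG. A match describes the letters in the window and does not show that a factor binds there.

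**Figure D5:**
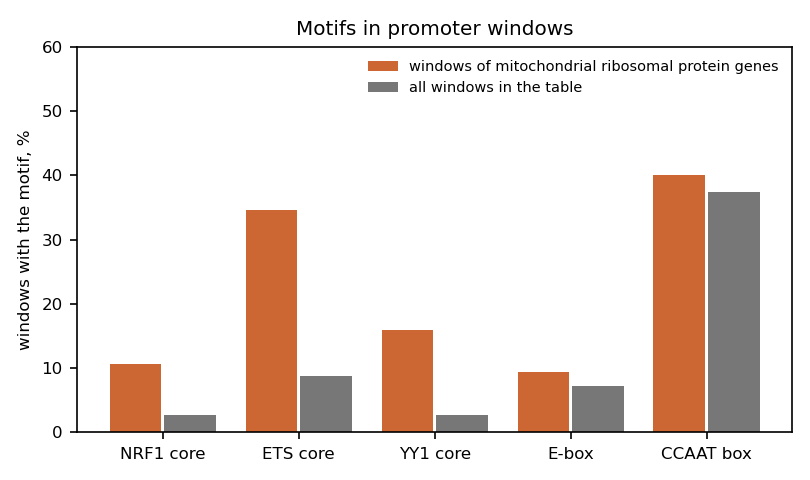
Percent of promoter windows holding each motif on either strand (vertical axis), for the 75 windows of mitoribosomal genes (orange) and all 32851 windows (grey). The bars of the ETS core stand at 34.7 and 8.86%, and those of the CCAAT box at 40.0 and 37.4%.

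Windows of 3 genes are given with matches to the 5 strings in capitals, 5′ to 3′ on the gene's strand: *Mrpl52*, the gene past the threshold (chr14:54426659-54426958, plus strand), *Mrps12*, the gene with the lowest log2 fold change (chr7:28741772-28742071, minus strand), and *Mrps11*, which faces *Mrpl46* (chr7:78782881-78783180, plus strand), all in GRCm38.p6. *Mrpl52* holds the ETS core 2 times, from 47 bases before and from 2 bases after the start, on the minus strand of the window. *Mrps12* holds the CCAAT box 4 times, the YY1 core and the ETS core, and *Mrps11* the YY1 core.
Mrpl52: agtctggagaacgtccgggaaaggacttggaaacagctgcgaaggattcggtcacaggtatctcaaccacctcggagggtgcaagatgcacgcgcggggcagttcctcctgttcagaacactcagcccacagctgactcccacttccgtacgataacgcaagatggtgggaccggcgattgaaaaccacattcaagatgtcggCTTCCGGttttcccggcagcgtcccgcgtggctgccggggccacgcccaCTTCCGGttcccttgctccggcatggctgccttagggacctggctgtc
Mrps12: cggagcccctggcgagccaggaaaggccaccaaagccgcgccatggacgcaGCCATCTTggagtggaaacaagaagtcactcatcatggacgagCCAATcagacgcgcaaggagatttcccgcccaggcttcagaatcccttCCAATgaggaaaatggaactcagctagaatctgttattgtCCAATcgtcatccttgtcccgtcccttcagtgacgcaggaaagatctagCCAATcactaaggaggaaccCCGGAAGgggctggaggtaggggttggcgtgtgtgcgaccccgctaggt
Mrps11: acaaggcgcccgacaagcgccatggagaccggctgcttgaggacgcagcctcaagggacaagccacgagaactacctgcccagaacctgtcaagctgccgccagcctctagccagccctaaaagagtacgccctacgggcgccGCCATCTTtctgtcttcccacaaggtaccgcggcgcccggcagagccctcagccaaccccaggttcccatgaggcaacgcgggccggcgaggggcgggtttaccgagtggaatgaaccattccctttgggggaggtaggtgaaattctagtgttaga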

How the data were processed

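The authors trimmed reads with Trim Galore 0.6.7 and cutadapt 3.4, aligned them with STAR 2.7.9a to GRCm39 and quantified transcripts with Salmon 1.10.1 within nf-core's RNA-seq workflow. Deposited by the authors were a gene table of estimated counts (expected counts, not normalized) and, for each library, the estimated count, effective length and TPM of 142434 transcripts. Strandedness is not given in the sources used here.

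After rounding, counts went into edgeR 4.0.16 under R 4.3.3 (TMM; filterByExpr by treatment with minimums of 10 counts and 15 in total; quasi-likelihood F-test), the model holding mouse and treatment, with Benjamini-Hochberg adjustment over 13722 genes at 0.05. The study's methods used limma with the mouse as covariate. The 95% intervals use the fold change's standard error and the fit's degrees of freedom. TPM was summed over each gene's transcripts. Pairing comes from the labels, which number the cultures 1 to 4 in both groups. That number was read as the mouse, the covariate of the study's methods. Same-mouse deviations correlated at -0.005 to 0.134, with a mean of 0.086, against a mean of -0.028 between different mice. Alternatives were no replicate block, DESeq2 1.42.0, limma 3.58.1 (voom), other scaling and filters, length offsets and leaving out each mouse. The scripts were tested on simulated data. Positions and transcript types are GENCODE M39 on GRCm39. Some marker genes are not reported here.

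The genes and lists were chosen with earlier results of these data known. Named were the genes past the threshold, the lowest p-values up to 20 genes, the 3 highest and the 3 lowest levels, the *Mrps18* paralogs, genes whose subunit differs from their name, the 3 largest differences each way, and up to 4 genes past the threshold per companion list. Other named genes (*Mrpl18*, *Mrpl22*, *Mrpl28*, *Mrps11*, *Mmp14*, *Pgap6* and companion genes that did not pass) were chosen after their values were seen.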

Additional observations from a re-analysis of the deposited data

Results flagged for a closer look

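In 54 groups of 4 libraries, those of the 27 named genes, 5 held a library that lay far from the other 3 by Dixon's test at the 95% level, which chance gives in about 1 of 20 groups. *Mrps7* was at 34.3 CPM in the vehicle culture of mouse 4 against 31.5 to 31.7 CPM in the others, and at 30.4 CPM in the bilirubin culture of mouse 1 against 37.0 to 37.7 CPM. *Mrps18a* was at 42.4 CPM in the bilirubin culture of mouse 4 and at 40.2 to 40.4 CPM in the other bilirubin cultures. *Mrps18b* was at 37.8 CPM in the vehicle culture of mouse 2, with the others at 36.3 CPM. *Mrps30* was at 24.2 CPM in the vehicle culture of mouse 3, below the 26.1 to 26.5 CPM of the others. The 5 values came from all 4 mice and both treatments and from 4 genes. *Mrps7* passed the threshold without mouse 1 (log2 fold change 0.20, adjusted p = 0.0158 by edgeR), where the number of all genes past it also went from 1033 to 1910, and the part of the single value in this was not tested.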

How the results depend on the processing

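Of the 78 genes, 1 passed the threshold in the fit as reported, 0 passed in a model without pairing by mouse (no replicate block), and 0 to 2 passed as each mouse was left out: 2 without mouse 1 (*Mrpl52* and *Mrps7*), 1 without mouse 2, and 0 without mouse 3 or mouse 4. The other alternatives gave 1 gene each, *Mrpl52* in all but the fit with an effective length offset, where it was *Mrps7*. Over the 13 alternatives the adjusted p of *Mrpl52* ranged from 0.000175 to 0.22015, and its log2 fold change from 0.22 to 0.34. The pairing changed no other call among the named mitoribosomal genes. The median log2 fold change of the 78 genes, 0.039, was 0.0128 with scaling by library size alone, where the median of all genes was -0.028, and 0.0038 with the length trend removed, and it lay between 0.019 and 0.042 when single mice were left out. Of 351 values of named genes, 344 kept their side of the threshold and stayed near the reported value. The sign differed from that of the reported fit in 11 of the 351. *Mrps33* went from 0.11 to -0.03 with the effective length offset, in neither case past the threshold. The number of genes past the threshold among all genes moved from 1033 to 377 without mouse 3, 441 without mouse 4, 634 without mouse 2, 1910 without mouse 1, 686 without the pairing, 579 with the effective length offset and 1692 without a filter on low counts. The causes were not tested. The precision rests on 4 mice and on at least 301 counts per gene and library. Nothing here measures mitoribosomal protein, rRNA in total or translation.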
